A study of Homo sapiens with 6 samples.

Results

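The 10 genes described here encode the proteins by which a cell senses foreign or misplaced nucleic acid: the DNA sensor *CGAS*, its adaptor *STING1*, the DNA nuclease *TREX1*, the RNA sensors *IFIH1*, *DHX58* and *TLR3*, the mitochondrial adaptor *MAVS*, the kinase *TBK1* and the transcription factors *IRF3* and *IRF7*. They were chosen by name, as listed sensors of DNA and RNA with their kinases and factors, and all 10 were found among the 62710 gene rows analysed. RNA came from H526, an established small cell lung cancer cell line, in 3 libraries of parental cells (numbered 1 to 3) and 3 libraries of onvansertib-resistant cells (numbered 7 to 9). Onvansertib inhibits polo-like kinase 1, and the resistant cells were selected from the parental line by raising the drug from 10 to 75 nM over more than a year. Both groups grew in the same medium with serum, and their RNA was extracted on 3 occasions each. The resistant cells are 1 selected population, so the 3 libraries measure the spread between extractions and not between independent selections. Adaptation, the drug itself and time in culture cannot be told apart.

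As background, cGAS binds DNA in the cytosol and makes the cyclic dinucleotide cGAMP, which activates STING on the endoplasmic reticulum. MDA5, the product of *IFIH1*, and RIG-I bind viral or misplaced duplex RNA and signal through MAVS on mitochondria. LGP2, the product of *DHX58*, belongs to the same receptor family but lacks the signalling domains that bind MAVS. TLR3 senses duplex RNA in endosomes through the adaptor TICAM1. These routes meet at TBK1, which phosphorylates IRF3 and IRF7, the factors that switch on the type I and type III interferon genes. TREX1 acts as a brake by degrading DNA in the cytosol. *IFIH1*, *DHX58*, *TLR3* and *IRF7* are themselves induced by interferon in many cell types.

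Values are the gene counts that the authors normalized with DESeq2, and they are comparable between libraries for a gene. Estimated depths ranged from 25614900 to 28477736 reads for parental and from 22306620 to 23344151 reads for resistant libraries. For a gene listed at 0 the expected number at this depth may still be up to 3 reads. This limit corresponded to a mean value of 2.84 in parental and 3.16 in resistant libraries and accounts for counting error only. Testing used limma on log2(value + 1) for genes whose mean over the 6 libraries reached 10, and 7 of the 10 sensing genes passed this filter. *CGAS*, *TLR3* and *TREX1* did not and are described by their values. The line was tuft-like by its markers, with *POU2F3*, the factor that defines this state, between 24511 and 27873 in every library. However, of the 7 tuft markers 4 were higher and 2 lower in resistant cells, beside 17.8% and 19.8% of all genes tested. The same shares apply to the marker counts that follow. Of 6 neuroendocrine markers 4 were tested, and all 4 were lower in resistant cells, with a median log2 fold change of -2.22. The summed value of the 6 was between 11190 and 12560 in parental and between 4289 and 4993 in resistant libraries, so neuroendocrine markers were expressed beside the tuft markers. Immune cells, which are rich in these sensors, left little trace: the summed value of 8 immune markers was between 17.5 and 20.8 in parental and between 12.3 and 16.0 in resistant libraries, *CD3E* was listed at 0 in all libraries, and *PTPRC* was at most 1.92. Most of the sum was *CD14*, the only immune marker tested, which was between 10.1 and 17.9 in every library. It did not pass the threshold (adjusted p = 0.39 by limma). Of 6 fibroblast and endothelial markers 4 were tested, and 3 were higher and 0 lower in resistant cells. The sum of the 6 was between 382 and 529 in parental and between 824 and 1046 in resistant libraries. The collagen gene *COL1A1* had a log2 fold change of 2.20 and *VWF*, an endothelial glycoprotein gene, rose from 276 ± 54.5 to 465 ± 22.0 (SD, n = 3), while *PECAM1*, another endothelial marker, was at 0.198 or less in every library. Another collagen gene, *COL3A1*, went the other way, from 18.0 ± 7.07 to 10.6 ± 4.33 (SD, n = 3), and did not pass the threshold. *DCN* was at 3.11 or less in every library. The part of these markers in the results was not tested. In such bulk RNA, fewer cells of a type and less RNA per cell cannot be told apart.

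Resistant cells held more RNA of *IFIH1* and *IRF7* and less of *TBK1* and *IRF3*, while *MAVS* did not differ past the threshold and the DNA sensor *CGAS* was at or near the limit of detection in both groups. The kinase *TBK1* fell as its chromosomal neighbours did, whereas *IFIH1* rose above all of its neighbours. Among the 7 tested genes, 2 were higher and 2 lower when called at 0.05 on the Benjamini-Hochberg scale of limma. By the same rule 37.7% of all 16347 tested genes were called, with 17.8% of all tested genes higher and 19.8% lower, and the 2 and 2 of 7 were read against that background and not as an excess. The median log2 fold change of the 7 genes was 0.29, against -0.00086 over all genes tested. This median is the value of *STING1*, which was not called. The 7 include *DHX58*, which reached the filter through its resistant values, so the median is no support by itself.

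**Figure D1:**
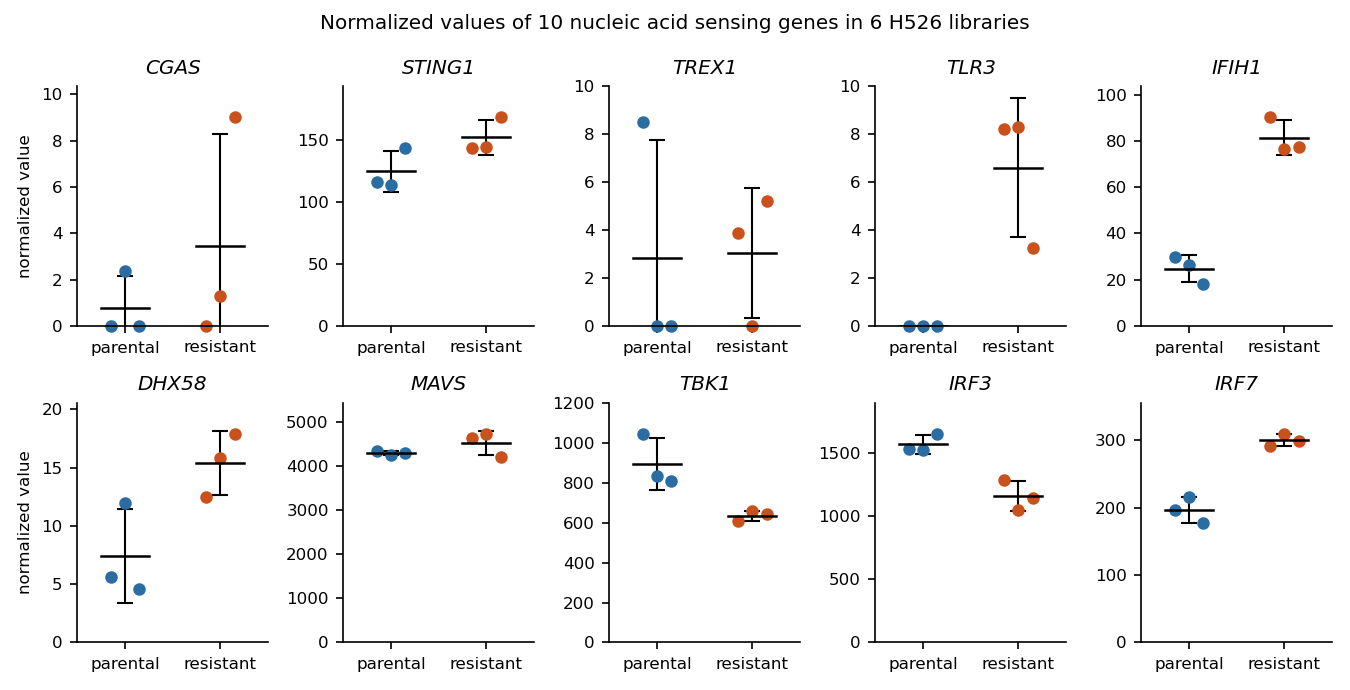
Normalized values of the 10 sensing genes, 1 panel a gene, on linear axes from 0. Points are libraries (parental blue, resistant orange), the horizontal line is the mean and the error bar the SD of 3 libraries, cut at 0. *IFIH1* and *IRF7* lie higher and *TBK1* and *IRF3* lower in every resistant library than in any parental one, and *CGAS*, *TREX1* and *TLR3* stay under 10 in all libraries.

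The promoter of *IFIH1* is shown because this gene had the largest rise among the tested sensors, and that of *TLR3* because it was detected in resistant libraries only. The RefSeq promoter table (GRCh38.p14, 250 bases before to 50 bases after the start) held 5 of the 10 genes: *IFIH1*, *TLR3*, *TBK1*, *MAVS* and *TREX1*. It had no entry for *CGAS*, *STING1*, *IRF3*, *IRF7* and *DHX58*. In the stretches below, read 5′ to 3′ on the strand of the gene, capitals mark matches to the core of the interferon-stimulated response element (GAAA, any 2 bases, GAAA, searched on both strands, bound by the ISGF3 complex and by interferon regulatory factors) and to the gamma-activated site (TTC, any 3 bases, GAA, the same on both strands, bound by STAT dimers). The *IFIH1* stretch is chr2:162318685-162318934 on the minus strand, and the *TLR3* stretch is chr4:186068906-186069161 on the plus strand and includes the first 6 bases from the RefSeq start at 186069156. That start, which the main Gencode transcript shares, lies 245 bases inside the Gencode gene because another transcript of *TLR3* begins further upstream.
IFIH1: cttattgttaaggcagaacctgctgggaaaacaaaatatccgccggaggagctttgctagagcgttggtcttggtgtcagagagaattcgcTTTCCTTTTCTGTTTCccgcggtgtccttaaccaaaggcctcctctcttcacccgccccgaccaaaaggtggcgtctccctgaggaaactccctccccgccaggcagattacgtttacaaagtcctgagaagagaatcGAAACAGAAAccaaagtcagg
TLR3: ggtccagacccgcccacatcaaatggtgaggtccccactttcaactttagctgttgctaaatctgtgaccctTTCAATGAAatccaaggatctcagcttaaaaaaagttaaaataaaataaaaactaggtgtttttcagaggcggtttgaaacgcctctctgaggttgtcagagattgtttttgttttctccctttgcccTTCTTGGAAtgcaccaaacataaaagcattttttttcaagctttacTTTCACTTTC

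In *IFIH1* the response element core occurred 3 times, in an overlapping pair on the opposite strand that starts at bases -159 and -153 from the start of the gene, and once on the gene strand at -21. In *TLR3* it occurred once, on the opposite strand across the start, and the gamma-activated site occurred 2 times, at -178 and -50. No match to either motif lay in the windows of *TBK1*, *MAVS* and *TREX1*. Of 35116 promoters in the table, 3.57% held the response element core and 7.66% the gamma-activated site. Matches of letters describe these windows and are not evidence of binding.

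For the RNA sensors, the question was whether the receptors that use MAVS or TICAM1 differ between the cells. *IFIH1* (ENSG00000115267, chromosome 2 of GRCh38, 162267074 to 162318684), whose product MDA5 binds long duplex RNA, had normalized values of 29.8, 26.5 and 18.2 in parental libraries 1, 2 and 3. In resistant libraries 7, 8 and 9 it was at 90.3, 76.7 and 77.3. Every resistant library lay far above the parental ones. Its mean rose from 24.8 ± 5.98 to 81.4 ± 7.67 (SD, n = 3), a ratio of 3.28, with a log2 fold change of 1.70 (95% confidence interval 1.10 to 2.30, adjusted p = 0.00085 by limma).

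*DHX58* (ENSG00000108771, chromosome 17, 42101404 to 42112714), which encodes the related receptor LGP2, was at 5.64, 12.0 and 4.55 in parental and at 12.5, 15.8 and 17.9 in resistant libraries. The groups did not overlap, but parental library 2 nearly reached the lowest resistant value. The log2 fold change was 1.05 with an interval from -0.0028 to 2.11 and did not pass the threshold (adjusted p = 0.11 by limma). The gene reached the filter of 10 through its resistant values, since the parental mean was 7.40 ± 4.03 and the resistant mean 15.4 ± 2.75 (SD, n = 3). Without parental library 2 it was 1.42 (adjusted p = 0.0499 by limma), so that library decided the call. *TLR3* (ENSG00000164342, chromosome 4, 186068911 to 186088073) had no reads listed in any of the 3 parental libraries and was at 8.20, 8.31 and 3.24 in resistant libraries. These are few reads, and resistant library 9 was at the value of 3 reads. The resistant mean of 6.58 ± 2.90 (SD, n = 3) was 2.32 times the parental limit of 3 reads a library. That ratio leaves out the counting error of the resistant values, so it is not a lower bound of the fold change.

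*MAVS* (ENSG00000088888, chromosome 20, 3846799 to 3876123), the adaptor shared by RIG-I and MDA5, had values of 4331, 4248 and 4296 in parental and of 4632, 4723 and 4208 in resistant libraries. Resistant library 9 was the lowest of all 6 and the groups overlapped. The log2 fold change of 0.07 lay within an interval from -0.069 to 0.216 (adjusted p = 0.40 by limma), so a change of *MAVS* beyond these bounds was not seen.

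In the DNA arm, *CGAS* (ENSG00000164430, chromosome 6, 73413515 to 73452297) was listed at 0 in parental libraries 1 and 3 and at 2.38 in parental library 2. In resistant libraries 7, 8 and 9 it was at 0, 1.3 and 9.01. Only resistant library 9 was above the value of 3 reads, so no direction can be given. *STING1* (ENSG00000184584, chromosome 5, 139475533 to 139482935), the receptor of cGAMP, was clearly detected, at 116, 114 and 144 in parental and 144, 144 and 168 in resistant libraries. The highest parental value lay at the level of the lowest resistant one. The log2 fold change was 0.29 (95% confidence interval -0.095 to 0.670) and did not pass the threshold (adjusted p = 0.22 by limma).

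*TREX1* (ENSG00000213689, chromosome 3, 48465811 to 48467645) was at 8.49, 0 and 0 in parental and at 3.87, 0 and 5.22 in resistant libraries, with overlapping groups at the limit of detection. All of its 1448 exonic bases also belong to exons of *ATRIP*, a gene of the DNA damage response on the same strand, which had values between 310 and 344 in all libraries. The quantification could have given *TREX1* reads to *ATRIP*, so the low level of *TREX1* is uncertain.

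Downstream of all sensors, *TBK1* (ENSG00000183735, chromosome 12, 64452090 to 64502114) was at 1046, 835 and 808 in parental libraries and at 608, 657 and 643 in resistant libraries. All resistant values were below all parental ones. The mean fell from 896 ± 130 to 636 ± 25 (SD, n = 3), and the log2 fold change was -0.49 (95% confidence interval -0.73 to -0.24, adjusted p = 0.0064 by limma). *IRF3* (ENSG00000126456, chromosome 19, 49659569 to 49665875), the factor that TBK1 activates and that most cells hold ready, was at 1533, 1522 and 1655 in parental and at 1289, 1047 and 1149 in resistant libraries. Again no resistant library reached the parental range. The mean fell from 1570 ± 73.7 to 1161 ± 122 (SD, n = 3), and the log2 fold change was -0.44 (95% confidence interval -0.64 to -0.24, adjusted p = 0.0037 by limma). Of the exonic bases of *IRF3*, 19.4% overlap *BCL2L12* on the opposite strand, which was between 675 and 741 in all libraries. Whether the counting used strand is not given in the sources used here, so reads of this overlap could belong to either gene.

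*IRF7* (ENSG00000185507, chromosome 11, 612553 to 615983), the factor that amplifies interferon production, moved the other way. Its values were 196, 216 and 177 in parental and 291, 309 and 299 in resistant libraries. The groups were well apart. The mean rose from 196 ± 19.2 to 300 ± 9.06 (SD, n = 3), a ratio of 1.53, with a log2 fold change of 0.61 (95% confidence interval 0.318 to 0.905, adjusted p = 0.0049 by limma). For *IFIH1*, *IRF7*, *DHX58*, *TBK1* and *IRF3* the groups did not overlap, with 3 of 7 tested genes higher and 2 of 7 lower. The corresponding shares of all tested genes were 24.0% and 25.9%, or 49.9% in either direction. *DHX58* reached the filter through its resistant values, so the 3 of 7 is no support by itself. For any gene whose groups did not overlap the exact permutation p (two-sided) is 0.10, the smallest that 3 libraries against 3 allow.

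Set against the length of the canonical transcript, which allows levels of genes to be compared, the order of the sensing genes in parental cells ran from *IRF3* at 984 ± 46.2 (SD, n = 3) normalized units per kilobase through *MAVS* at 366 ± 3.53 and *TBK1* at 297 ± 43.1 to *IRF7* at 102 ± 9.97 and *STING1* at 57.5 ± 7.67. *IFIH1* followed at 6.93 ± 1.67 and *DHX58* at 2.86 ± 1.55. The kinase, the mitochondrial adaptor and the latent factor were thus the abundant members, while the sensors *IFIH1*, *DHX58*, *TLR3* and *CGAS* were scarce. Neighbours in this order down to *DHX58* had ranges that did not overlap, while *DHX58*, *TREX1*, *CGAS* and *TLR3* were not separated from the next in order. In resistant cells the first 7 places were held by the same genes in the same order, with *IFIH1* at 22.7 ± 2.14 and *IRF7* at 156 ± 4.71 units per kilobase, and *TREX1*, *TLR3* and *CGAS* were not separated.

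**Figure D2:**
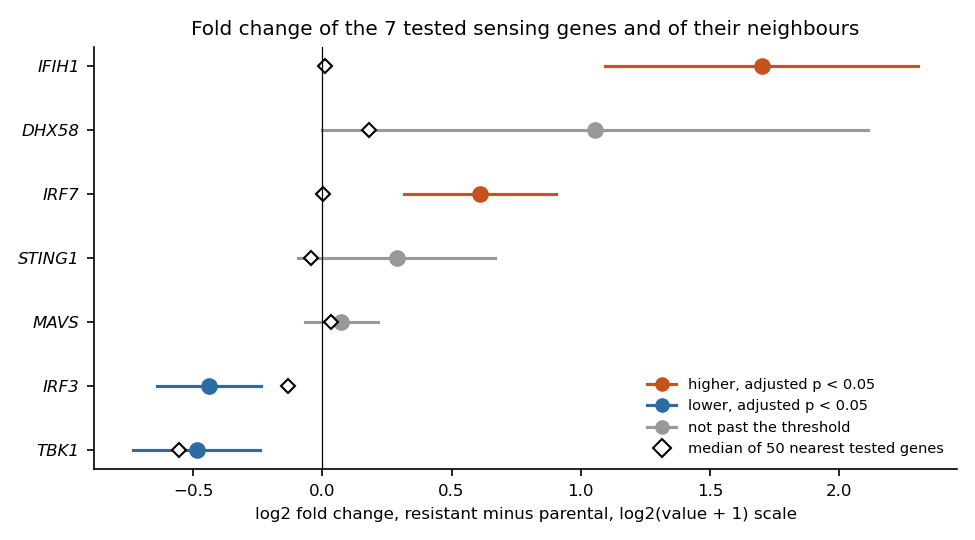
Log2 fold change (resistant minus parental, log2(value + 1) scale) of the 7 tested sensing genes, with 95% confidence intervals from limma. Diamonds give the median log2 fold change of the 50 nearest tested genes on the chromosome. The diamond of *TBK1* at -0.56 lies within its interval, and that of *IFIH1* at 0.01 lies far below its value of 1.70.

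To separate a change of a gene from one shared with the chromosome around it, each tested gene was set beside the 50 nearest tested genes. Around *TBK1*, from 57.8 to 69.6 Mb of chromosome 12, 44 of 50 neighbours had a log2 fold change below 0, and 28 were lower and 1 higher past the threshold. Their median was -0.56, against -0.49 for *TBK1* itself, and 31 of the 50 had a lower value than *TBK1*. When the deviation of the neighbours was subtracted in each library, the log2 fold change of *TBK1* was 0.064 (adjusted p = 0.67 by limma), so its fall did not exceed that of its neighbourhood. Gene copies were not measured.

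The other 3 called genes differed from the median of their neighbours, though some neighbours of *IRF7* and *IRF3* moved further in the same direction. All 50 neighbours of *IFIH1* had a lower log2 fold change than its own, with a median of 0.01. For *IRF7* this was so for 41 of 50, with a median of 0.00049. Around *IRF3* the median was -0.13 and 8 of 50 neighbours had a lower value than *IRF3*. After the same subtraction *IFIH1* was at 1.74, *IRF7* at 0.65 and *IRF3* at -0.31, and all 3 stayed past the threshold (adjusted p = 0.00083, 0.0048 and 0.031 by limma).

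**Figure D3:**
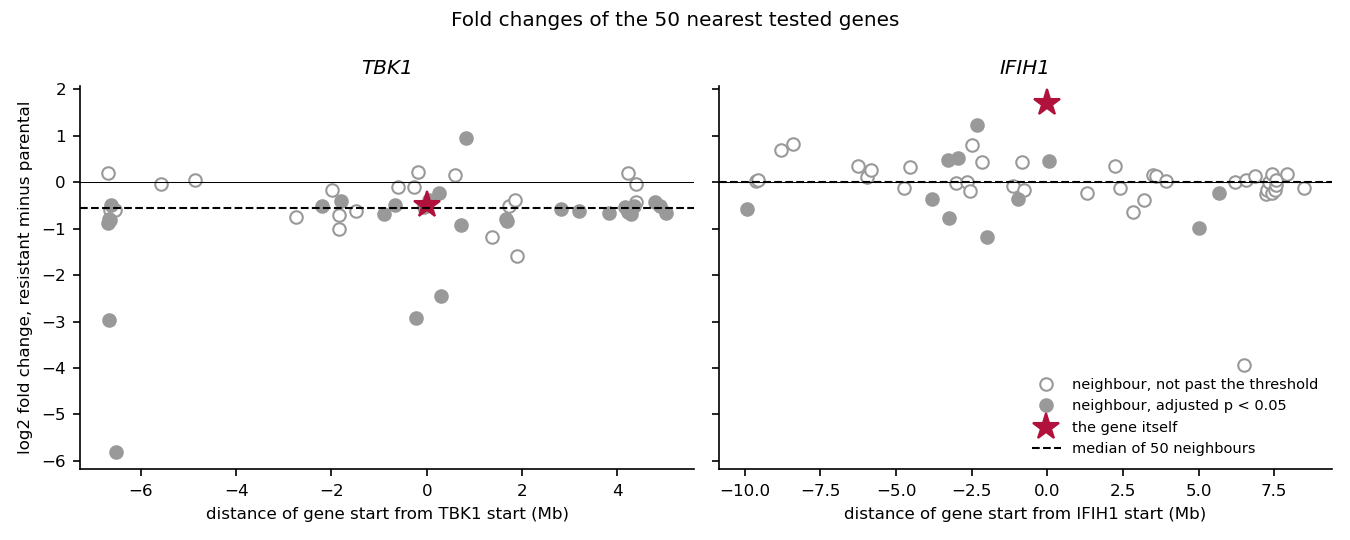
Log2 fold change of the 50 nearest tested genes (circles, filled at an adjusted p under 0.05 by limma) against the distance of their start from the start of *TBK1* (left) and *IFIH1* (right), in Mb. The star is the gene itself and the dashed line the median of the neighbours, -0.56 around *TBK1* and 0.01 around *IFIH1*.

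The rest of the pathway was described with 8 lists of 86 genes, of which 63 were tested. The test called 16 of the 63 higher and 11 lower, beside the 17.8% and 19.8% of all genes tested, and the median log2 fold change was 0.06. Among the RIG-I-like receptor cofactors, 9 of 10 genes were tested, and 3 were higher and 0 lower, with a median of 0.03. *RIGI*, the sister receptor of MDA5, rose from 1685 ± 277 to 2768 ± 247 (SD, n = 3), and the log2 fold change was 0.72 (limma, adjusted p = 0.00072). *ZC3HAV1*, an antiviral zinc finger protein that binds CpG-rich RNA, rose by 0.98 on the log2 scale although the median of its neighbours was -0.32. *NLRX1*, a mitochondrial protein described as a regulator of MAVS signalling, rose by 0.92.

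Of 7 other sensors of duplex RNA, 4 were tested, and 2 were higher and 0 lower, with a median log2 fold change of 0.88. Of all genes tested, 17.8% were higher. *OAS1*, which was not called, reached the filter through its resistant values, with means of 9.23 in parental and 22.5 in resistant libraries. The median is therefore no support by itself. *OAS3*, which makes the second messenger 2-5A, rose from 178 ± 17 to 351 ± 35.1 (SD, n = 3), and the log2 fold change was 0.98 (limma, adjusted p = 0.00042), while the median of its neighbours was -0.42. *OAS2* and *OASL* were listed at 0 in all 6 libraries.

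Of 9 endosomal Toll-like receptors and adaptors, 7 were tested, with 1 higher, 1 lower and a median of 0.05. *TICAM1*, the adaptor of TLR3, rose from 456 ± 47.3 to 600 ± 9.94 (SD, n = 3), and the log2 fold change was 0.40 (limma, adjusted p = 0.013). *CNPY3*, a chaperone of Toll-like receptors, fell by 0.70 on the log2 scale. *TLR7* and *TLR8* were listed at 0 in all libraries.

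Around cGAS and STING, 10 of 14 DNA sensors and regulators were tested, and 2 were higher and 4 lower, with a median log2 fold change of -0.10. *BANF1*, a DNA-binding protein that keeps cGAS off nuclear DNA, fell from 5308 ± 83.1 to 3876 ± 155 (SD, n = 3), and the log2 fold change was -0.45 (limma, adjusted p = 0.00025). *TRIM56*, a ubiquitin ligase reported to modify cGAS and STING, rose from 358 ± 90.9 to 765 ± 128 (SD, n = 3), and the log2 fold change was 1.11 (limma, adjusted p = 0.0014), in a region of chromosome 7 where the median of the neighbours was -0.59. *SLC19A1*, a folate carrier that can also import cGAMP, had a log2 fold change of 1.09, and the median of its neighbours on chromosome 21 was 1.26. After subtraction of the neighbours it was at -0.23 (adjusted p = 0.10 by limma). *IFI16* and *ZBP1*, which sense DNA and left-handed nucleic acid, were listed at 0 in all 6 libraries.

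Among 11 nucleases and editors that limit self nucleic acid, 10 were tested, with 1 higher, 3 lower and a median of 0.07. The catalytic subunit of RNase H2, *RNASEH2A*, fell from 1967 ± 157 to 1237 ± 96.0 (SD, n = 3), and the log2 fold change was -0.67 (limma, adjusted p = 0.00026), while its partner *RNASEH2B* had a log2 fold change of 0.39 (limma, adjusted p = 0.015). The call of *RNASEH2B* was lost when parental library 3 (adjusted p = 0.057 by limma) or resistant library 8 (adjusted p = 0.056 by limma) was left out, without the trend (adjusted p = 0.063 by limma) and after subtraction of the neighbours, where the log2 fold change was 0.20 (adjusted p = 0.13 by limma). *PNPT1*, a mitochondrial RNA nuclease, had a log2 fold change of -0.32 (limma, adjusted p = 0.033), lost without parental library 1 or 3 or resistant library 8 or 9, with adjusted p of 0.10, 0.076, 0.11 and 0.077 by limma, and lost with upper-quartile scaling and without the trend (adjusted p = 0.053 and 0.084 by limma). *DNASE1L3* was listed at 0 in all libraries.

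All 13 scaffolds and adaptors of TBK1 and its relatives were tested, with 1 higher, 3 lower and a median of -0.14. *OPTN*, a ubiquitin-binding adaptor of TBK1, rose from 446 ± 35.5 to 691 ± 48.9 (SD, n = 3), and the log2 fold change was 0.63 (limma, adjusted p = 0.0011). *TBKBP1*, a scaffold of TBK1, fell by 0.52 on the log2 scale (adjusted p = 0.0053 by limma), against a median of 0.26 for its neighbours. *IKBKG*, which has a near-identical pseudogene and is therefore uncertain, had a log2 fold change of -0.33, which lost its call when parental library 3 (adjusted p = 0.066 by limma) or resistant library 7 (adjusted p = 0.073 by limma) was left out, and after subtraction of the neighbours, where it was -0.18 (adjusted p = 0.19 by limma).

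Of 7 other interferon regulatory factors, 5 were tested, and 2 were higher and 0 lower, with a median of 0.33. *IRF1*, an early factor of the interferon response, was at 121, 177 and 124 in parental and at 224, 643 and 570 in resistant libraries, so that library 7 was well below the other resistant ones. Its log2 fold change was 1.65 (adjusted p = 0.0039 by limma). *IRF2*, its relative, rose from 290 ± 9.33 to 480 ± 10.7 (SD, n = 3). *IRF8* was listed at 0 in all libraries.

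Interferon transcripts were at or under the detection limit. *IFNB1*, *IFNA1*, *IFNA2*, *IFNK*, *IFNL2* and *IFNL3*, and the chemokines *CXCL10* and *CCL5*, were listed at 0 in all 6 libraries, which allows an expected number of up to 3 reads in each. *IFNE* was at 1.78, 1.93 and 0.981 in parental and at 0, 2.08 and 1.08 in resistant libraries, and *IFNL1* was listed above 0 in resistant library 9 only, at 2.14, all below the value of 3 reads. Of 15 interferons and early targets 5 were tested, and 4 were higher and 0 lower, with a median log2 fold change of 1.60. *ISG15*, a ubiquitin-like protein induced by interferon, rose from 104 ± 4.04 to 317 ± 10.7 (SD, n = 3), and the log2 fold change was 1.60 (limma, adjusted p = 1.8e-05). *IFIT3* rose from 50.9 ± 10.5 to 153 ± 16.3 and *IFIT1*, which binds foreign RNA ends, from 4.15 ± 1.63 to 18.3 ± 3.50 (SD, n = 3), while *IFIT2* was at 7.75 ± 4.6 in parental and 27.3 ± 5.11 in resistant libraries (SD, n = 3). *IFIT1* and *IFIT2* reached the filter through their resistant values, so the 4 of 5 and the median are no support by themselves. Where the mean had to reach 50, the count was 2, and it was 3 when a resistant library was left out.

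**Figure D4:**
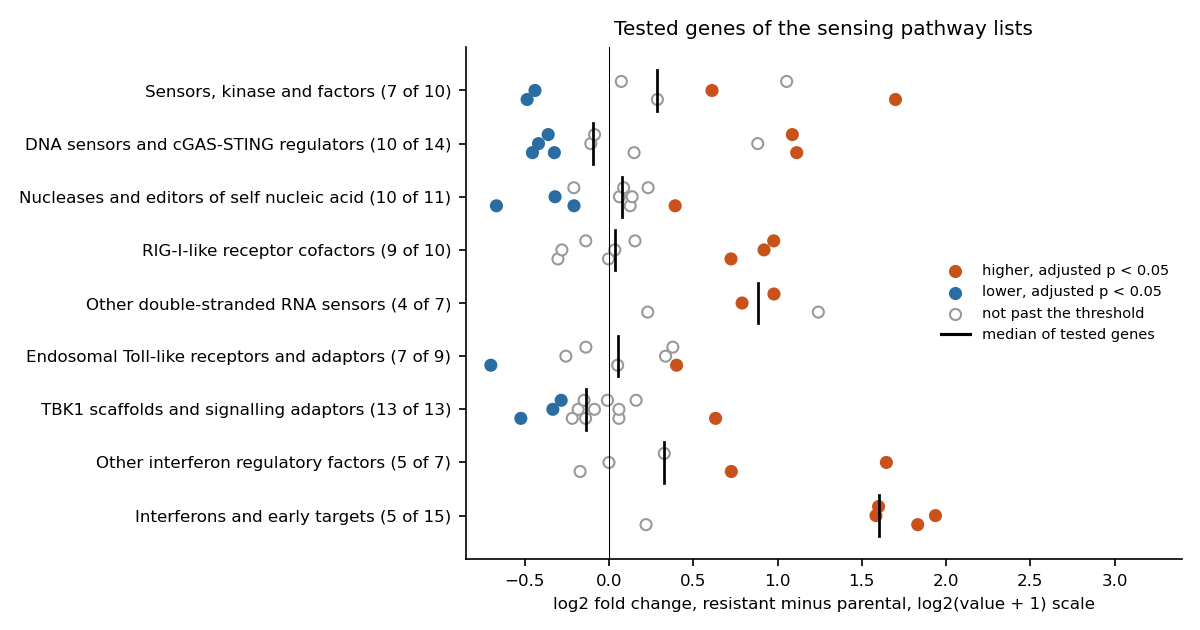
Log2 fold change (resistant minus parental, log2(value + 1) scale) of the tested genes of the 10 sensing genes and of 8 pathway lists, with the number tested of the number listed. Each point is a gene, coloured by its call at an adjusted p under 0.05 by limma, and the bar is the median of the tested genes, highest at 1.60 for interferons and early targets and lowest at -0.14 for TBK1 scaffolds and adaptors.

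The promoter table held 75 genes of the sensing genes and the 8 lists together. The response element core lay in 5 of 14 promoters of genes that were higher, *IFIH1*, *ISG15*, *IFIT1*, *IFIT3* and *OAS3*, in 0 of 12 of genes that were lower, and in 3 of 31 of tested genes that did not pass the threshold. It lay in 7 of 18 promoters of genes that were not tested, among them *TLR3* and *CXCL10*. The match in *TLR3*, TTTCACTTTC, has the same 10 letters as a match in *IFIT1* and in *IFIT3*. Read on the other strand, it is also the match in *CXCL10*, GAAAGTGAAA, a gene listed at 0 in all 6 libraries. The gamma-activated site lay in 3 of 14, 1 of 12 and 4 of 31 promoters of genes higher, lower and not past the threshold. Several of these genes were listed because interferon is known to induce them, so the counts describe the lists only.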

How the data were processed

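The authors trimmed paired-end reads with Trimmomatic 0.38, aligned and quantified them into gene counts with RSEM 1.3.1 on GRCh38 with the Gencode v43 annotation (STAR is also named), and normalized the counts with DESeq2 1.30.0. The deposited values are this normalized signal per gene and library, without a filter. Between 29.9% and 56.7% of low values were within 0.02 reads of a whole multiple of the value of 1 read, too few to recover whole reads, and count models were therefore not used. Depth was the sum of values divided by the value of 1 read. Of 62757 rows, 47 second copies of pseudoautosomal genes were left out. Symbols and positions came from Gencode v44 for 62639 rows.

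Genes were tested with limma 3.58.1 (R 4.3.3, a linear model of condition alone, with variances moderated towards a trend on mean level, and Benjamini-Hochberg adjustment at 0.05 over all 16347 genes whose mean reached 10) on log2(value + 1), so that fold changes of low genes are understated. The fit was tested on simulated data. The genes and lists were chosen with earlier results of these data known. Named in the text are the 10 sensing genes, up to 3 genes of each list with the smallest p past the threshold, and genes listed at 0 throughout. Any other gene named, such as an overlapping gene or a marker, was chosen after its values were seen. Alternatives were upper-quartile scaling, quantile normalization, a pseudocount of 0.1 or 10, all genes unfiltered, a filter at a mean of 50, no trend, local centring on the 50 nearest tested genes, and each library left out. Protein sequence features were planned and are not analysed here. Some listed genes are not reported here. Python 3.11.15 was used for other steps.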

Additional observations from a re-analysis of the deposited data

How the results depend on the processing

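No paired analysis was possible because the parental libraries are numbered 1 to 3 and the resistant libraries 7 to 9 and share no number, and the sources used here do not say which parental and resistant libraries came from the same extraction. *IFIH1*, *IRF7* and *IRF3* kept their direction and call under all 14 alternatives, with log2 fold changes from 1.41 to 1.84, from 0.54 to 0.68 and from -0.52 to -0.31, and *STING1* and *MAVS* passed the threshold under none. Local centring left 1 sensing gene lower instead of 2: the log2 fold change of *TBK1* was then 0.064. It also turned *SLC19A1* to -0.23 and *TRAF3*, a gene on chromosome 14 that was not called otherwise, from 0.06 to -0.27 (adjusted p = 0.014 by limma). With a library left out, *TBK1* stayed between -0.56 and -0.37 and lower past the threshold, and *DHX58* ranged from 0.81 to 1.42, past the threshold only without parental library 2. *DHX58* dropped out of the test when the mean had to reach 50. Without the filter, *TLR3*, which then entered through its resistant values alone, had an adjusted p of 0.0027 by limma, and *CGAS* and *TREX1* had 0.51 and 0.71. For the pathway genes, 792 of the values under an alternative kept their direction and call, 35 lost the call, 20 gained it, and 2, those of *SLC19A1* and *TRAF3*, changed sign where the gene was called with or without the centring. A further 26, of genes called neither way, changed sign. The total called ranged from 14 to 20 higher and from 8 to 12 lower. The depth limits *CGAS*, *TREX1* and *TLR3*, whose values correspond to a few reads. For *TREX1* the assignment of reads shared with *ATRIP* is a further limit.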

Other observations

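Ratios between genes of the pathway within a library, per kilobase of transcript, were chosen after the values were seen, and 4 were computed. *IRF7* amounted to 10.6%, 11.7% and 8.88% of *IRF3* in parental libraries 1, 2 and 3 and to 18.7%, 24.5% and 21.6% in resistant libraries 7, 8 and 9, a difference of 1.05 on the log2 scale, higher in 3 of 3 resistant libraries (exact two-sided permutation p = 0.10, the smallest possible, adjusted p = 0.13). Since *IRF7* was higher and *IRF3* lower in every resistant library, the separation of this ratio follows from those values and adds no evidence. *IFIH1* amounted to 1.89% ± 0.301 of *RIGI* in parental and 3.80% ± 0.0253 in resistant cells (SD, n = 3), a difference of 1.02 on the log2 scale with the same exact p. It mostly restates the log2 fold changes of *IFIH1*, 1.70, and *RIGI*, 0.72, and is no separate evidence. *IKBKE*, the inducible relative of *TBK1*, amounted to 17.6% ± 4.72 of *TBK1* in parental and 25.1% ± 1.59 in resistant cells (SD, n = 3), a difference of 0.55 with the same exact p, while *IKBKE* itself had a log2 fold change of 0.06. This ratio therefore mostly restates the log2 fold change of *TBK1*, -0.49, and is no separate evidence. *DHX58* amounted to 41.2% ± 19.1 of *IFIH1* in parental and 26.6% ± 6.69 in resistant cells (SD, n = 3, exact permutation p = 0.40). No adjusted p of the 4 ratios was under 0.05, which 3 libraries against 3 cannot reach.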
